A study of Mus musculus with 6 samples.

Results

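The transcriptome described here is that of wild-type LSK cells, the lineage-negative Sca-1+ c-Kit+ fraction of mouse bone marrow, in the 3 control libraries of a series of 6. The libraries were taken by their genotype label, wild type, and not by a measured value, and for each of 24063 symbols the transcript with the most exon bases was taken. The controls were C57BL/6 mice labelled wild type and, by their titles, Mx1-cre controls, and they had received pIpC, a synthetic double-stranded RNA, as had the Asxl2-/- mice of the other 3 libraries. Per the methods of the study, pIpC induces the interferon-responsive Mx1 promoter and was given 4 weeks before the marrow was taken. Every library here is thus from animals with an earlier interferon stimulus, and none shows the level without it. Age and sex are not given in the labels.

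LSK cells are the compartment in which the haematopoietic stem cells and the multipotent progenitors of adult marrow are found. Sca-1, a GPI-anchored surface protein encoded by Ly6a, and c-Kit, the receptor for stem cell factor encoded by Kit, are held together on these cells, while antigens of mature blood cells are low or absent. Early progenitors are known to transcribe low amounts of genes of several blood lineages before they commit to any of them, a state called lineage priming. Transcription factors such as Gata2, Runx1, Tal1, Lmo2 and Meis1 keep the stem-cell programme, while Gata1, Klf1, Spi1, Cebpa and Ebf1 direct the erythroid, myeloid and lymphoid branches.

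Levels are given as CPM per kb, counts scaled to the library total and to the summed exon length, and values follow the order of control replicates 1, 2 and 3. Replicates 1 and 3 were deposited as counts per exon and replicate 2 as counts per transcript, so levels were first freed of the average effect of splice junctions, each of which lets a read be counted in more than 1 exon. The counts of the chosen transcripts totalled 53147729, 29136012 and 53280796, and 17327, 16467 and 16850 symbols had at least 1 count. The totals of the exon-count files are not depths, because spliced reads enter them more than once. A level of 3 counts, taken as the floor of detection before division by length, was 0.0564, 0.103 and 0.0563 CPM, which covers counting error only. With a single group there is no contrast to test, so spread is given as the SD over n = 3 libraries and as folds between libraries. Folds, and the library in which a gene was highest or lowest, were taken after each library was centred on its median gene, so a fold can differ a little from the ratio of the printed levels. A gene is placed in a class of level by its mean over the libraries unless stated. Replicate 1 stood apart in interferon-inducible GTPase genes, replicate 2 in myeloid genes and both in glial genes, as given with their values further on.

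All 5 genes taken as identity markers, of which only Kit is part of the sort gate, were well above the median of all symbols, which was 0.708 CPM per kb. Cd34, a sialomucin of progenitors at chr1:194938821-194961292 on the mm10 build, had 185, 145 and 134 CPM per kb. Gata2 (chr6:88198664-88207032), a zinc-finger factor needed by stem cells, had 87.7, 50.4 and 60.7. Kit (chr5:75574987-75656721) had 81.7, 53.4 and 61.4. For these genes replicate 1 was the highest library, and replicates 2 and 3 lay closer to each other. Flt3 (chr5:147330742-147400489), a receptor tyrosine kinase of multipotent and lymphoid-primed progenitors, was at 35.5, 30.4 and 17.9 CPM per kb. Meis1 (chr11:18880428-19018969), a homeobox partner of the Hox proteins, was at 24.6, 11.6 and 13.9. Replicate 1 was again the highest, so that it was the top library for 5 of 5 markers, against 3796 of all 12024 genes compared. Ly6a, another gene of the sort gate, was lowest in replicate 1, as given below. Meis1 was the marker with the lowest mean, 16.7 ± 6.91 CPM per kb.

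**Figure D1:**
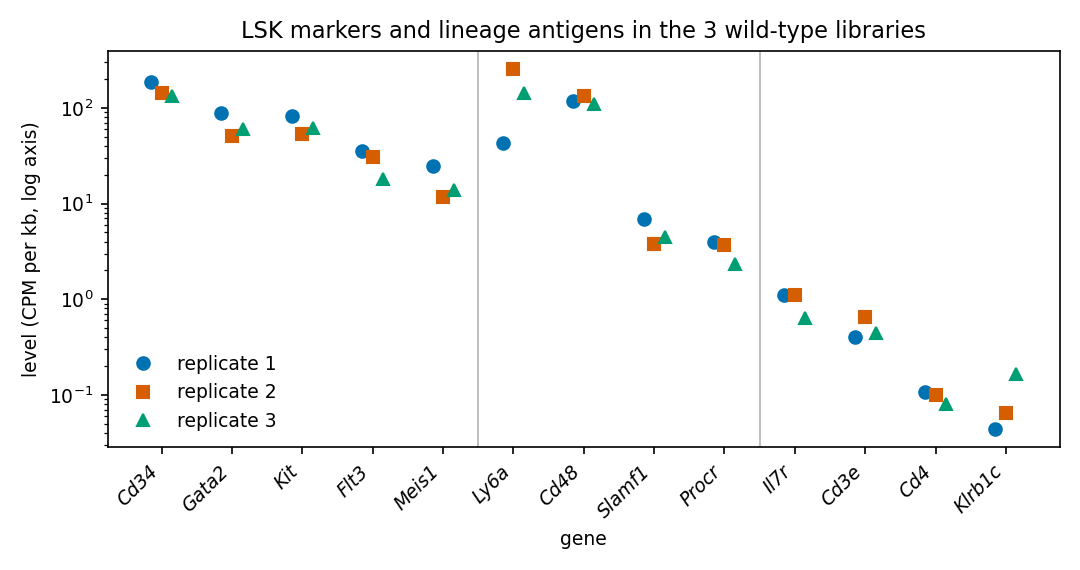
Levels of LSK markers and of lineage antigens in the 3 wild-type libraries, in CPM per kb on a log axis, with each point a library. The 5 identity markers lie to the left of the first line, sort and stem-cell markers between the lines and lineage antigens to the right, where every value is under 2 CPM per kb, while Ly6a runs from 42.9 in replicate 1 to 256 in replicate 2.

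Of 20 surface genes of the gate and of progenitors, 6 differed at least 2-fold between the highest and the lowest library, against 9.78% of all genes compared, and Ly6a was among them. Ly6a, which encodes the Sca-1 antigen used in the sort, had 42.9, 256 and 143 CPM per kb, a 6.17-fold range. Replicate 1 was the low library and replicate 2 the high one, the reverse of the order for Kit. Ly6e, a relative of Ly6a, had 409, 642 and 488, and Cd48, a marker of multipotent progenitors, had 118, 133 and 109. Cd48 was thus close to even over the libraries. The genes of the most primitive cells were low: Slamf1 (CD150) had 6.93, 3.82 and 4.5 and Procr (EPCR), an endothelial protein C receptor used to enrich stem cells, had 4.0, 3.65 and 2.36 CPM per kb. Of the 20 surface genes, 13 were at 10 CPM per kb or more, 5 were between 1 and 10, and 2, Il7r and Emcn, were between 0.1 and 1.

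Of 12 lineage antigens listed, among them those stained in the sort, 3 were at 10 CPM per kb or more, among them Ly6c2 and Ptprc. Ptprc encodes the pan-leukocyte antigen CD45, which LSK cells carry, and had 39.8, 49.8 and 32.4 CPM per kb. Per the study, the sorted cells were CD45.2+, so Ptprc was also a gene of the gate. Ly6c2, which encodes a Ly6C protein of monocytes and granulocyte precursors, had 32.3, 535 and 110.1. Ly6c2 stood out in replicate 2. The antigens of T and NK cells were far lower. Cd3e had 0.40, 0.645 and 0.447, Cd4 had 0.107, 0.0998 and 0.0799 and Klrb1c (NK1.1) had 0.0435, 0.0652 and 0.165 CPM per kb, which for the last 2 genes rested on at most 19 counts in a library. Cd8a at 4.48, 5.26 and 3.09 and Itgam (Mac-1) at 2.41, 4.22 and 2.32 were between those extremes.

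A total of 11121 genes (46.2% of the symbols) reached 1 CPM per kb in every library, 6508 (27.0%) reached 10, 748 (3.11%) reached 100 and 48 reached 10 times that level. The 100 most abundant genes held 26.8% ± 0.309 (SD, n = 3) of the summed CPM per kb. Genes of the ribosome filled most of that space: 62 of 84 ribosomal-protein symbols were among the 100, and these 84 held 19.0%, 16.6% and 18.5% of the summed level. The highest gene was Eef1a1, the translation elongation factor that brings aminoacyl-tRNA to the ribosome, with 5729, 5349.9 and 5582 CPM per kb. It was followed by Mir5121 (3811), Rplp1 (3279.7), B2m (2787) and Rpl32 (2587). Mir5121 is a short feature that shares 39.2% of its bases with Rpl13a and Snord33, so its place cannot be told from that of its host. B2m is the light chain of class I histocompatibility molecules, and its values of 2396, 3113 and 2854 were lowest in replicate 1. The other 15 of the 20 most abundant genes included Rps12, Rpl4, Rps20, Rpl41, Rpl13a, Rps9, Rps4x, Rpl8, Rps2, Gnb2l1, Rpl12, Rplp0 and Hsp90ab1, with means between 1727 and 2524 CPM per kb. All of these but Hsp90ab1, which encodes a chaperone, belong to the ribosome or, as Gnb2l1 (RACK1) does, sit on it. By its mean, Mpo, the azurophil-granule enzyme myeloperoxidase, was the lineage gene with the highest rank among the listed genes, at rank 38. Its level was highest in replicate 2, and in replicate 1 the erythroid genes Car1 and Car2 were above it, as given below.

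The stem-cell transcription factors were nearly all measurable. Of 34 listed, 20 were at 10 CPM per kb or more, 10 between 1 and 10, 4 between 0.1 and 1 and none below, with a median of 14 CPM per kb. The highest was Lmo2, the LIM-domain bridge between Tal1 and the Gata factors, with 313, 252 and 268. Zfp36l2, an RNA-binding protein listed with the factors, had 213, 139 and 163, and Myb, which drives progenitor expansion, had 188, 155 and 170.2. These genes differed by at most 1.49-fold between libraries. Myc had 135, 142 and 132 and Ldb1, the cofactor that binds Lmo2, had 132, 102 and 140.2, while Ikzf1 (Ikaros) had 89.1, 80.6 and 92.6. Cbfb, the partner subunit of the Runx proteins, had 71.3, 77.6 and 57.5, well above Runx1 itself with 15.1, 12.6 and 13.5. Lyl1, a relative of Tal1, had 75.8, 64.8 and 64.5. Among the lower factors, Hlf had 12.2, 4.08 and 5.95, Mecom (Evi1) had 5.01, 2.29 and 3.08 and Hoxb5 had 0.777, 0.163 and 0.299 CPM per kb, with replicate 1 the highest for each. Of the 31 stem-cell factors with at least 50 counts on average, 6 differed at least 2-fold between the highest and the lowest library. Of all genes compared, 9.78% did. Among the 31, 21 were highest in replicate 1 and 20 lowest in replicate 2, against 3796 and 4504 of all 12024 genes. None of the 31 had replicate 2 at least 2-fold above both others, against 2.74% of all genes, or below both, against 0.973%.

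Hox genes were for the most part silent or near it. Of 39 Hox symbols, 8 had no count, 9 reached a mean of 1 CPM per kb and 1 reached 10. That gene was Hoxa9, a homeobox factor of progenitors, with 15.7, 9.24 and 8.39 CPM per kb. Replicate 1 was highest, and the other libraries lay together. Of the other listed Hox genes, Hoxa7 had 5.1, 3.24 and 2.61, Hoxb4 2.75, 2.18 and 2.23, Hoxa5 3.45, 1.85 and 1.61 and Hoxa10 2.48, 1.41 and 1.45. Of the Asxl genes, which encode the Polycomb-linked proteins that the study is about and which were looked up outside the lists, Asxl1 had 25, 21.1 and 22 and Asxl2 12.6, 13.5 and 11.6 CPM per kb. Asxl3 was near absent, with 3, 0 and 1 counts.

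Factors of single blood lineages were found on a wider scale. Of 26 listed, 11 were at 10 CPM per kb or more, 8 between 1 and 10, 6 between 0.1 and 1 and 1 below 0.1. The 8 highest were Irf8, Nfe2, Klf1, Tcf3, Gata1, Zfpm1, Spi1 and Id2. Irf8, a factor of monocytes and dendritic cells, had 46.2, 183 and 58.7 CPM per kb. Replicate 2 stood 4.09-fold above replicate 1, whereas the latter and replicate 3 were close. Klf1 and Gata1, the erythroid pair, had 87.6, 67.4 and 104 and 78.7, 58.9 and 88.4, with Zfpm1 (FOG-1), the cofactor of Gata1, at 83.7, 50.7 and 81.6. Replicate 2 was the lowest of the 3 for each of these genes. Spi1 (PU.1), the myeloid and lymphoid master factor, had 51.8, 90.1 and 52.8, and Cebpa, the granulocyte factor, had 20.2, 36 and 22.9, so both were highest in replicate 2. Nfe2 had 102, 77.1 and 81.5, Tcf3, which encodes the E2A proteins, had 89.4, 71.7 and 88.6, and Id2, which opposes them, had 27.6, 68.9 and 23. Some lymphoid factors were low, unlike Tcf3: Pax5 had 1.52, 1.22 and 1.02, Ebf1 1.05, 0.845 and 0.642, Gata3 2.04, 0.971 and 1.61 and Tcf7 1.53, 1.76 and 0.951 CPM per kb. Bcl11b, the factor of T-cell commitment, was under 0.1 with 0.0735, 0.0563 and 0.0404.

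Factors that specify other tissues served as a scale of absence. Of 24, 20 had a mean under 0.1 CPM per kb, and 6 of these, Nanog, Neurod1, Myod1, Cdx2, Pdx1 and Trp63, had no count in any library. The counts of the other 14 of the 20 were at most 15 in a library (Sox10, which had 15, 0 and 0 counts); these included Olig2, Sox10, Sp7, Twist1, Pax6, Sox9, Prox1, Myog, Nkx2-5, Pou5f1, Foxa2 and Sox17. The exceptions above that level were Runx2, a bone factor of the same family as Runx1, with 10.9, 8.86 and 6.9 CPM per kb, then Hnf4a with 1.79, 0.331 and 0.823, Pparg with 0.297, 0.24 and 0.0614 and Sox2 with 0.152, 0.014 and 0.165. At the other end, 34 of 35 ubiquitous factors were at 10 CPM per kb or more, with a median of 42.3. Among the 8 highest were Ybx1 (531), Hmgb2 (276), Hmgb1 (216), Fos (183), Atf4 (139.6), E2f4 (136) and Jun (106). The list was even, with a median fold of 1.19 between the highest and the lowest library. Of the 35, 1 differed at least 2-fold, against 9.78% of all genes compared. Ets1 was the 1 ubiquitous factor below 10, with 3.57, 2.73 and 2.34.

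**Figure D2:**
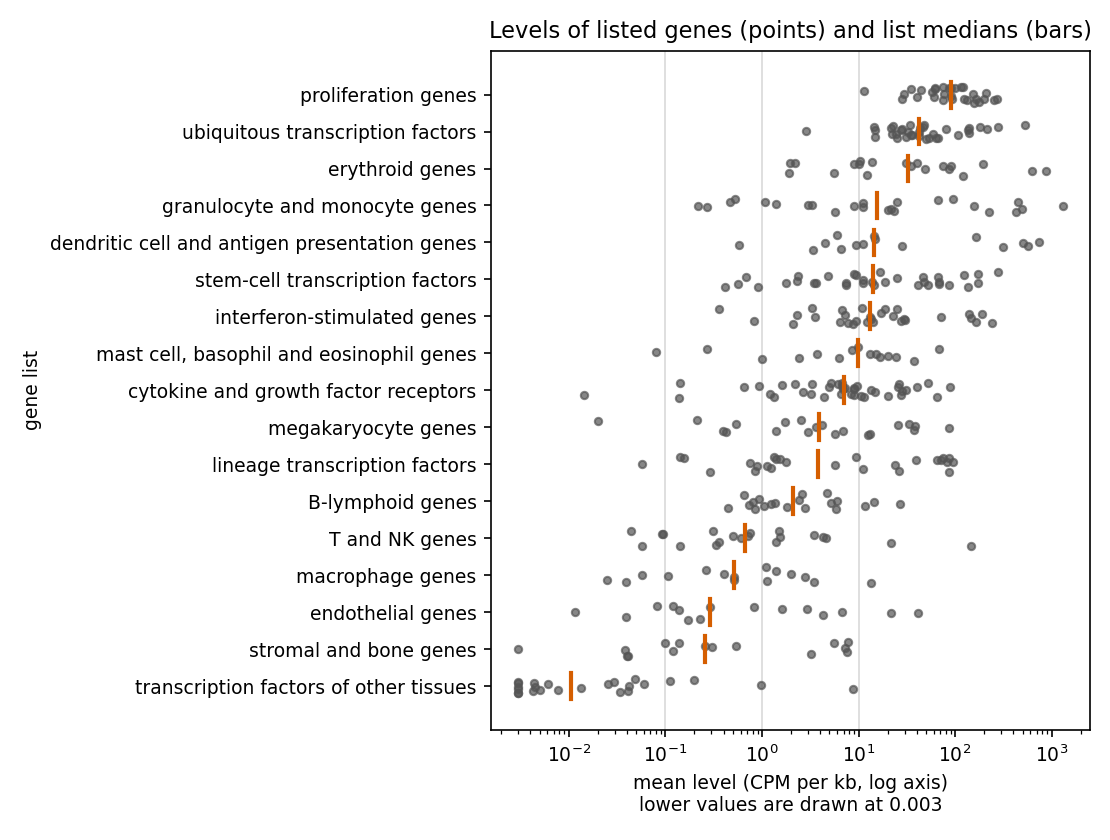
Mean level of the genes of 17 lists in wild-type LSK cells, in CPM per kb on a log axis, with a point per gene and a bar at the median of the list. Proliferation genes have a median of 91.3 and ubiquitous factors of 42.3, erythroid, granulocyte and antigen-presentation genes and stem-cell factors have medians above 10, and 20 of 24 factors of other tissues lie below 0.1, with a median of 0.0106.

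Among 40 receptors for cytokines and growth factors, 14 were at 10 CPM per kb or more, 21 between 1 and 10, 4 between 0.1 and 1 and 1, Egfr, below. The receptor with the highest level was Ifngr1, the ligand-binding chain for interferon-gamma, with 85.9, 90.9 and 86.2 CPM per kb. It was even across the libraries, as was Ifnar2, a chain of the receptor for type I interferons, with 29.9, 33.1 and 30.3. Kit came after Ifngr1, followed by Il2rg, the common gamma chain of several interleukin receptors, with 49.6, 61.9 and 46.9. Epor, the erythropoietin receptor, had 40.8, 32.8 and 48.5. Tnfrsf1a, a receptor for tumour necrosis factor, had 23.2, 39 and 20.4, and Csf2rb, the shared chain of the GM-CSF, IL-3 and IL-5 receptors, had 13.2, 43.7 and 21.6. Csf2rb and its neighbour Csf2rb2 are near-identical copies, so the split of reads between them is uncertain. Replicate 2 was at least 2-fold above both other libraries for 7 of the 38 receptors compared, against 2.74% of all 12024 genes. The 7 included Csf1r, the M-CSF receptor of monocytes, with 2.96, 18.7 and 5.54, Il6ra with 5.74, 15.8 and 5.65 and Csf2ra with 19.1, 40.9 and 16.3 CPM per kb. Replicates 1 and 3 were close together for Il6ra and Csf2ra, and replicate 1 was the lowest library for Csf1r. The gene-count minus exon-count difference of the Asxl2-/- libraries, explained further on, had a median of 0.13 (log2) for the receptors.

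Of 27 receptors for chemokines, lipids, Notch ligands and Wnts, 5 were at 10 CPM per kb or more and 11 were between 0.1 and 1. The highest was Gpr56, an adhesion receptor of stem cells, with 289.9, 151 and 195. Cxcr4, which holds stem cells in the niche through CXCL12, had 30.8, 40.9 and 23.3, and Ccr2, a receptor of monocytes, had 9.75, 44.2 and 11.9. Ccr2 had the widest range of the 3, with replicate 2 the high library. Notch2 had 18.7, 19.5 and 14.4, above Notch1 with 5.52, 6.21 and 3.74, and Lrp5 had 14.5, 15.7 and 11.6. P2ry14, Ptger4 and Lrp6 completed the 8 highest, with means of 9.29, 7.27 and 7.08 CPM per kb. Casr, the calcium-sensing receptor, was the only gene of this list under 0.1, with 2, 2 and 1 counts.

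Erythroid genes were the strongest of the lineage lists by their median, 32.8 CPM per kb, with 15 of 20 at 10 or more and none under 1. Car1, a carbonic anhydrase of early erythroid cells, had 849, 768 and 1029.9 CPM per kb (rank 76), and Car2 had 644, 411 and 818. Aqp1, a water channel, had 223, 126 and 239.6. In each of these, replicate 3 was highest and replicate 2 lowest. Tfrc, the transferrin receptor, had 96.6, 127 and 136, and Ermap had 86.3, 74.3 and 109. The genes of haemoglobin synthesis were much lower: Hba-a1 had 15.9, 5.53 and 9.41, Hbb-bs 50.9, 17.6 and 24.1 and Alas2 2.85, 1.02 and 1.8 CPM per kb. Hba-a1 and Hba-a2 are near-identical, as are the listed beta-globin genes and their allelic symbols Hbb-b1 and Hbb-b2, so each of these levels is uncertain. Hba-a1, Hbb-bs and Alas2 were highest in replicate 1, unlike Car1, Car2 and Aqp1. Of the 20 genes, 13 were highest in replicate 3 and 17 lowest in replicate 2, against 3809 and 4504 of all 12024 genes. The summed level was 2316, 1795 and 2777. Replicate 2 differed from the mean of the others by a median of -0.71 (log2), beside a difference between kinds of file of 0.36 in the Asxl2-/- libraries.

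Megakaryocyte genes had a median of 3.92 CPM per kb, with 7 of 20 at 10 or more. Apart from Nfe2, the highest were Pf4, the platelet chemokine, with 65.6, 22.2 and 27.7, F2r, a thrombin receptor, with 39.6, 37.7 and 36.6, Itga2b (CD41) with 47.1, 26 and 26.1 and Plek with 29.1, 27.3 and 20.5. F2r was even while Pf4 was high in replicate 1. Some genes of the mature platelet were low, with Ppbp at 0.554, 0.222 and 0.511, Tubb1 at 0.429, 0.171 and 0.576 and Gp6 at 0, 0.0596 and 0 CPM per kb, the last with 0, 2 and 0 counts. All 16 genes of the list that were compared were highest in replicate 1, against 3796 of all 12024 genes. The median log2 difference of replicate 3 from replicate 1, of the same kind of file, was -0.55. For replicate 2 against the mean of the others it was -0.42, beside a difference between kinds of file of -0.43 in the Asxl2-/- libraries.

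Granulocyte and monocyte genes had a median of 15.5 CPM per kb, with 14 of 24 at 10 or more. Their summed level was 1573, 5754 and 2702, which was above that of the erythroid genes in replicate 2 and below it in replicates 1 and 3. Most of that came from the genes of azurophil granules, which are made early in granulocyte development. Mpo had 630.0, 2137 and 1124 CPM per kb, Prtn3 (proteinase 3) 235, 845 and 394, Ctsg (cathepsin G) 246, 714 and 389 and Elane (neutrophil elastase) 169, 748 and 353. For all 4 granule genes replicate 1 was lowest, replicate 3 intermediate and replicate 2 highest. Genes of the later, specific and tertiary granules were low, with Ltf (lactoferrin) at 0.161, 0.426 and 0.224, Camp at 1.25, 1.95 and 1.0, Ngp at 0.925, 1.45 and 0.869 and Mmp8 at 0.0547, 0.378 and 0.219. S100a8 and S100a9, abundant proteins of mature neutrophils, had 13.8, 43.7 and 17.2 and 7.83, 18.3 and 7.03.

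B-lymphoid genes were lower still, with a median of 2.1 CPM per kb, 3 of 20 at 10 or more and 11 between 1 and 10. The highest was Dntt, the terminal transferase of lymphoid progenitors, with 47.2, 19.6 and 14.3. Replicate 1 stood 3.13-fold above replicate 3. Cd79b, a chain of the B-cell receptor complex, had 16.4, 15.3 and 11.6, and Cd72 had 16.7, 8.49 and 9.99, of which 20.8% of the exon bases are shared with Tesk1. Vpreb3 had 7.78, 5.59 and 4.42 and Igll1, the surrogate light chain, had 6.16, 7.81 and 3.69. Of 19 genes compared, 14 were highest in replicate 1 and 15 lowest in replicate 3, against 3796 and 3662 of all 12024 genes. Genes of T and NK cells had a median of 0.665, and 12 of 20 were below 1 CPM per kb. The 2 at 10 or more were Nkg7, a granule membrane protein, with 140.2, 166 and 128, and Lat, an adaptor of T-cell, mast-cell and platelet signalling, with 29.1, 16.6 and 20. Lck had 6.46, 3.7 and 3.74 and Cd247 3.3, 4.38 and 2.59, although 80.5% of the Cd247 exon bases are shared with Pou2f1. Ncr1, Klrb1c, Cd4 and Bcl11b were under 0.1.

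Genes of mast cells, basophils and eosinophils had a median of 9.83 CPM per kb, with 7 of 15 at 10 or more. Cpa3, the mast-cell carboxypeptidase, had 85.6, 64.1 and 54, and Mcpt8, a basophil protease, had 44, 45.4 and 23.2. Cma1, a chymase of connective-tissue mast cells, had 47.4, 11.5 and 14.4, and Prg2, the major basic protein of eosinophils, had 11.5, 45.9 and 3.71. These genes did not share an order: Cma1 was high in replicate 1 and Prg2 in replicate 2. Hdc, which makes histamine, had 11.5, 24.6 and 14.2. The eosinophil chemokine receptor Ccr3 was under 0.1 with 16, 2 and 8 counts.

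Genes of dendritic cells and of antigen presentation were present at a median of 14.6 CPM per kb. Cd74, the invariant chain of class II molecules, had 456, 1275 and 478 CPM per kb. H2-Aa had 317, 983 and 396, H2-Ab1 286, 865 and 378 and H2-Eb1 189, 506 and 249, which encode the class II chains themselves. Replicate 2 was the highest library for all 4 genes and at least 2-fold above both others for Cd74, H2-Aa and H2-Ab1, but not for H2-Eb1. Bst2, an interferon-induced restriction factor also found on plasmacytoid cells, had 115, 194 and 187, while Siglech, the defining lectin of plasmacytoid dendritic cells, had 0.77, 0.816 and 0.15.

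Markers of non-blood cells of the marrow were low as lists but not all absent. Of 15 endothelial genes, 2 were at 10 CPM per kb or more, Egfl7 with 56.6, 29.3 and 39.4 and Pecam1 (CD31) with 20.1, 27.5 and 17.1, both known in stem and progenitor cells as well. Tie1 had 10.1, 4.31 and 5.69, Plvap 5.09, 2.69 and 4.96 and Esam 4.78, 1.59 and 2.45. In this list 4 genes were between 1 and 10, 6 between 0.1 and 1 and 3 under 0.1. Among the lower members, Cdh5 (VE-cadherin) had 0.126, 0.0861 and 0.0316 and Kdr 0.182, 0.176 and 0.0546. Stab2 had 0.0584, 0.0211 and 0.0378 and Lyve1 0, 0.0263 and 0.00877 CPM per kb. Of 15 stromal and bone genes, none reached 10 and 5 were between 1 and 10: Col1a2 with 13, 3.54 and 7.08, Col1a1 with 13, 3.0 and 6.67, Sparc with 13.5, 1.98 and 6.06, Spp1 with 5.03, 7.51 and 4.23 and Pdgfrb with 4.37, 2.64 and 2.69. The collagens and Sparc were highest in replicate 1 and lowest in replicate 2, and the Asxl2-/- difference between kinds of file had a median of 0.97 (log2) for this list. Postn, Lepr, Pdgfra and Col3a1 were under 0.1, and Acan had no count. Of 15 macrophage genes, 1 was at 10 or more, Cd68, a lysosomal protein, with 9.95, 21.3 and 9.22, followed by Hmox1 (3.46), Vcam1 (2.8), C1qb (1.99) and C1qc (1.39). Marco, Siglec1 and Mertk were under 0.1. In bulk RNA, more cells of a type and more RNA per cell cannot be told apart, here and in all of the lineage lists.

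No count at all was found for 5949 symbols (24.7%). Families of symbols, picked by name after the values were seen, differed in their share of silent members, although most silent symbols lie outside the sensory and epithelial families named here. Of 1122 olfactory receptor symbols (Olfr), 1078 had no count, as did 319 of 331 vomeronasal receptors, 42 of 43 beta-defensins and 84 of 107 keratins and keratin-associated proteins. Of 1120 microRNA precursors, 581 had no count, in libraries made from poly(A)-selected RNA. In contrast, 0 of 40 proteasome subunits (Psm) and 10 of 362 zinc-finger symbols (Zfp) had no count. The proteasome subunits had a median of 128 CPM per kb, the zinc-finger genes 2.90 and the ribosomal proteins 1012. A count of 0 in all libraries allows a level of up to 3 counts in each, as given above.

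Cell-cycle genes were abundant and, with the lowest median fold between libraries of the 28 lists, even. All 30 proliferation genes were at 10 CPM per kb or more, with a median of 91.3. None of them differed 2-fold between any libraries, against 9.78% of all genes compared. Pcna, the sliding clamp of DNA replication, had 269.9, 265 and 272 CPM per kb, Mcm6 248, 259 and 251 and Mcm7 211, 204 and 215. Top2a, which untangles replicated DNA, had 195, 209 and 199, and Mcm3, a subunit of the replicative helicase with Mcm6 and Mcm7, had 175, 176 and 175. The median fold between the highest and the lowest library was 1.12, against 1.23 over all genes compared. Of 20 CDK inhibitors and G1 regulators, 15 were at 10 or more and 0 of 16 compared differed 2-fold, against the same share. Cdk4 had 381, 360.2 and 394, Trp53 156, 143 and 155, and the D-type cyclins Ccnd3, Ccnd2 and Ccnd1 had 72.6, 79.2 and 65.9, 48.6, 51.3 and 47.5 and 30.5, 31.1 and 30.5 CPM per kb. Cdk6 had 53.9, 49.8 and 47.3. The inhibitors that hold stem cells in quiescence differed widely in level, with Cdkn1b (p27) at 23.4, 18.5 and 17.5 and Cdkn1c (p57) at 0.84, 0.30 and 0.476, while Cdkn2a, the Ink4a/Arf locus, had 0.362, 0.85 and 1.04.

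Immediate early genes, which are induced within minutes of a stimulus or of tissue handling, had a median of 24.4 CPM per kb. Fos had 229, 165 and 156, Jun 121, 98.5 and 98.9, Zfp36 94.6, 74.9 and 70.2 and Dusp1 74.2, 44.7 and 53.6, and Myc, given above, belongs with them. Of 20 genes compared, 14 were highest in replicate 1, against 3796 of all 12024 genes. The Asxl2-/- difference between kinds of file had a median of 0.59 (log2). Of 12 heat-shock genes, a list chosen after the values were seen, 11 were at 10 or more. The inducible pair Hspa1a and Hspa1b differed most within it, with 9.11, 40 and 4.72 and 17.9, 65.1 and 9.13 CPM per kb, highest in replicate 2. These 2 genes are near-identical copies, so the share of each is uncertain.

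Expression level went with the letters of the promoter. RefSeq entries on GRCm38.p6, which shares its coordinates with mm10, were found within 50 bases of the transcript start for 13746 of 20414 protein-coding symbols, and the 250 bases before the start were read. The ratio of observed to expected CpG had a median of 0.146 in genes with no count, 0.392 under 0.1 CPM per kb, 0.493 from 0.1 to 1, 0.687 from 1 to 10, 0.784 from 10 to 100 and 0.821 at 100 or more. TATAAA on either strand was found in 28.6% of promoters of genes with no count and in 12.2% of all, with 5.21% at 10 to 100 CPM per kb and 7.89% at 100 or more. This is a description across genes, which are not independent replicates. Promoters of proliferation genes had a median ratio of 0.860 and those of stem-cell factors 0.741, whereas granulocyte and monocyte genes had 0.175, erythroid genes 0.216, B-lymphoid genes 0.188, megakaryocyte genes 0.165 and mast cell, basophil and eosinophil genes 0.132. Surface markers of the gate and of progenitors had 0.304 and lineage transcription factors 0.732, so the ratio did not divide lineage genes from stem-cell genes as such.

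The 100 bases before the start are shown for the identity genes Gata2, Kit and Cd34 and for the lineage genes Mpo and Pf4, with CpG in capitals, to show the range from many to no CpG. The ratio over 250 bases was 0.741 for Gata2, 0.601 for Kit, 0.597 for Flt3, 0.595 for Meis1 and 0.446 for Cd34, so the identity genes were not uniform. The windows shown lie at chr6:88198564-88198663 on the plus strand, chr5:75574887-75574986 on the plus strand, chr1:194938721-194938820 on the plus strand, chr11:87793684-87793783 on the plus strand and chr5:90772335-90772434 on the plus strand, and are written 5′ to 3′ on the strand of the gene.
Gata2: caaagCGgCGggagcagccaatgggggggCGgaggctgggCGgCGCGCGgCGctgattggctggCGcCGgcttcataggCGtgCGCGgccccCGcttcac
Kit: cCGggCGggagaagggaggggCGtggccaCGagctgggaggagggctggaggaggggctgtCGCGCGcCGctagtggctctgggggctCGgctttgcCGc
Cd34: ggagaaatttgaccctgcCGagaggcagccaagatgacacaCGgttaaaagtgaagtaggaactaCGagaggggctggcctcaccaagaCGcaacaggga
Mpo: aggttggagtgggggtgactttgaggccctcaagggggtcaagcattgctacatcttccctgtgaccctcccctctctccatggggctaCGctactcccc
Pf4: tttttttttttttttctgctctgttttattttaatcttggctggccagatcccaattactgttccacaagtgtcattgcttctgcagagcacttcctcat

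**Figure D3:**
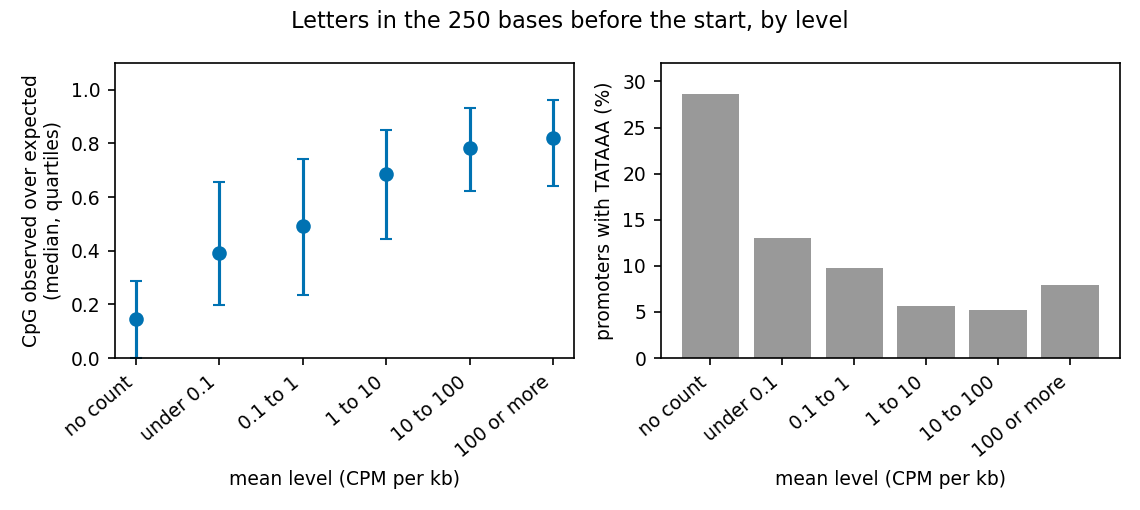
Left, ratio of observed to expected CpG in the 250 bases before the transcript start, as median with quartiles, for genes grouped by mean level in CPM per kb. Right, percent of the same promoters that hold TATAAA on either strand. The ratio climbs from 0.146 in genes with no count to 0.821 at 100 CPM per kb or more, and TATAAA is most frequent, at 28.6%, in genes with no count and is higher at 100 or more than at 10 to 100.

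The 3 controls were close for most genes. Over the 12024 genes with a mean of at least 50 counts, compared on log2 levels centred on their median, the median SD was 0.156 (90th percentile 0.520) and the median fold between the highest and the lowest library was 1.23. All libraries lay within 1.5-fold for 76.8% of these genes, and 1176 (9.78%) spanned at least 2-fold. The median absolute log2 difference was 0.158 between replicates 1 and 3, which are of the same kind of file, and 0.196 and 0.195 between replicate 2 and replicates 1 and 3. Replicate 3 was at least 2-fold above replicate 1 for 83 genes (0.69%) and at least 2-fold below it for 216 (1.8%). Replicate 2 was at least 2-fold above both others for 330 genes (2.74%) and below both for 117 (0.973%). Replicate 1 was above both others for 133 (1.11%) and below both for 71 (0.59%). These counts describe 3 libraries and not a condition. Replicate 2 is also the only control of its kind of file, so for a single gene the library and the kind of file cannot be told apart. The log2 difference between the gene-count and the exon-count files of the Asxl2-/- libraries is given beside it as a measure of the kind of file, although it also carries the difference between those animals.

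**Figure D4:**
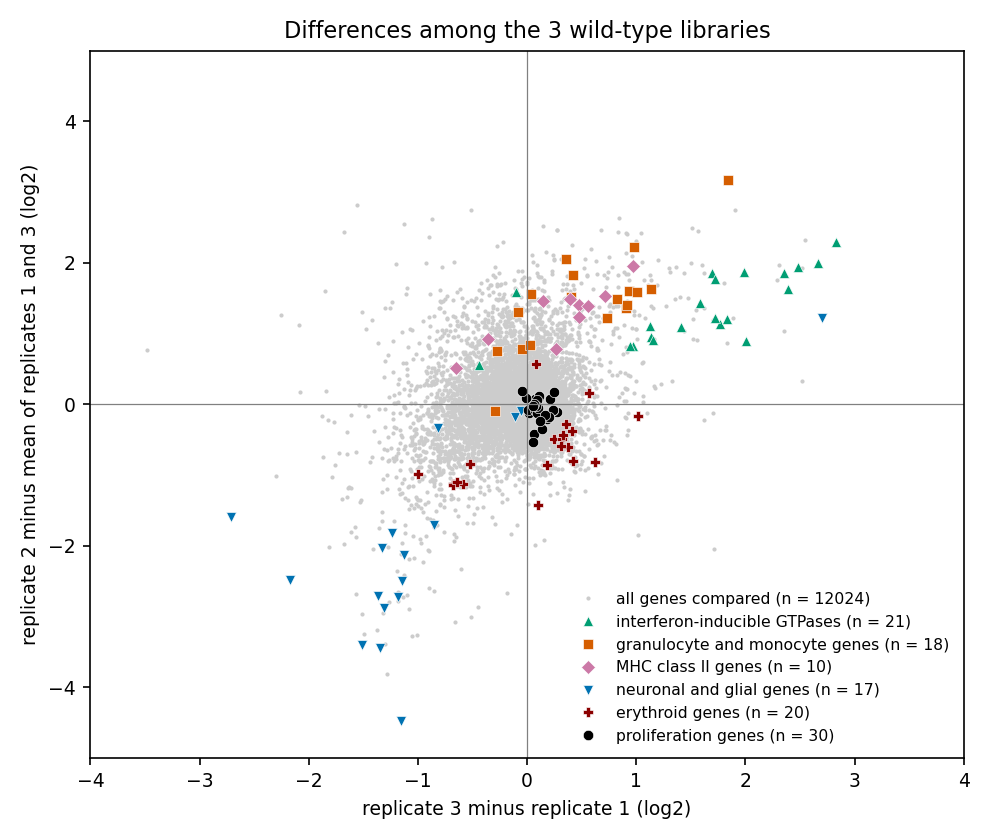
Log2 difference of replicate 3 from replicate 1 on the x axis and of replicate 2 from the mean of replicates 1 and 3 on the y axis, a point per gene, for 12024 genes in grey and 6 lists in colour; 4 genes lie outside the axes. Interferon-inducible GTPases sit at the upper right with medians of 1.72 and 1.23, granulocyte, monocyte and MHC class II genes above the centre, neuronal and glial genes at the lower left, and proliferation genes at the centre.

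Replicates 3 and 1, the pair of like files, differed in interferon-inducible GTPases, the guanylate-binding proteins and immunity-related GTPases that attack vacuoles of intracellular microbes. This list of 22 symbols was chosen after the values were seen. Gbp2 had 38, 334 and 201 CPM per kb, Igtp (Irgm3) had 68, 267 and 220.1, Iigp1 (Irga6) had 28.9, 228 and 140.1 and Gbp4 had 1.71, 21.7 and 11.5. In each, replicate 1 was lowest by a wide margin and replicate 2 highest, and Gbp4 in replicate 3 was 7.09-fold above replicate 1. Of 21 compared, 17 were at least 2-fold higher in replicate 3 than in replicate 1 and 17 had replicate 1 at least 2-fold below both others, against 0.69% and 0.59% of all genes. The summed level was 455, 1854 and 1310.3 CPM per kb, and the gene-count minus exon-count difference in the Asxl2-/- libraries had a median of -0.19 (log2) for them. Tgtp1 and Tgtp2 are near-identical copies, so their separate levels are uncertain. The exceptions were Mx1 with 2.14, 5.99 and 1.89, Mx2 with 0.852, 1.03 and 0.593, Ifi47 with 91.4, 220.1 and 170.3 and Tgtp2 with 26.2, 62 and 47.8 CPM per kb, which did not reach 2-fold between replicates 3 and 1.

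Classical interferon-stimulated genes were less uniform than the GTPases. Of 30 listed, 18 were at 10 CPM per kb or more and 2, Ifit3 and Mx2, were below 1. Among the highest were Ifitm3 with 175, 309 and 232, followed by Gbp2, Bst2 and Ly6a. Replicate 3 was at least 2-fold above replicate 1 for 6 of 29 compared, against 0.69% of all genes. Replicate 1 was at least 2-fold below both others for 5 of 29, against 0.59%. The 6 included Gbp2, Gbp3, Ly6a, Zbp1 and Isg15. Zbp1, a sensor of nucleic acids, had 9.41, 40.9 and 33.1 and Isg15, a ubiquitin-like modifier, had 18.2, 32.8 and 40.5. Some antiviral genes, of the Ifit and Oas families and Rsad2, were even by comparison: Ifit1 had 1.91, 2.47 and 1.86, Ifit2 7.17, 6.61 and 6.44, Oas1a 14, 13.7 and 14.4 and Rsad2 2.71, 2.18 and 1.99 CPM per kb. Ifngr1, Ifngr2, Ifnar1 and Ifnar2, the receptor chains, had folds of 1.09, 1.63, 1.16 and 1.14 between the highest and the lowest library.

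The letters GAAA and GAAA spaced by 2 bases of any kind, the core of an interferon-response element, were found on either strand in the 250 bases before the start in 9 of 20 interferon-stimulated genes with an entry, against 2.97% of all promoters. They were found in 9 of the 9 GTPase genes with an entry. TTCNNNGAA, the core of a STAT site, was found in 4 of 20 and in 7 of 9, against 6.86% of all, and the motifs can overlap. Igtp, Irgm2, Tgtp1 and Tgtp2 have closely related promoters, so their matches are not separate observations. The 100 bases before the start of 4 of these genes are shown with both motifs in capitals, on either strand, because these genes were at least 2-fold higher in replicate 3 than in replicate 1. They lie at chr3:142620563-142620662 on the plus strand, chr3:142559944-142560043 on the plus strand, chr11:58199456-58199555 on the plus strand and chr11:58183743-58183842 on the plus strand. Genes with little difference between the libraries also held the first motif, with 2 matches in Ifit1, 2 in Oas1a and 1 in Rsad2, so its presence did not divide the genes that differed from those that did not. A match is a description of the letters and not a measured site.
Gbp2: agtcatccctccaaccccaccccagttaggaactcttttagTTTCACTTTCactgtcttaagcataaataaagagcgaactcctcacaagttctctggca
Gbp3: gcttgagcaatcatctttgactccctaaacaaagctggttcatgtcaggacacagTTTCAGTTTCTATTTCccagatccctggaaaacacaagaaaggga
Igtp: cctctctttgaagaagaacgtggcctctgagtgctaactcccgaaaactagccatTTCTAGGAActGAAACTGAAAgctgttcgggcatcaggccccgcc
Gm12250: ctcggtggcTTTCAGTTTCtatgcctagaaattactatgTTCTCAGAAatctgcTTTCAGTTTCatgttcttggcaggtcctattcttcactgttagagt

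The 10 genes with the widest excess in replicate 3 over replicate 1 (mean of at least 200 counts) were Gbp4, Tubb3, Gbp6, Serpina3f, Mir6381, Gbp2, Gbp8, Iigp1, C4b and 3830403N18Rik. The last had 9, 563 and 38 counts. It thus passed the filter only through replicate 2, which is not part of this comparison, and its excess rests on few counts. Serpina3f, a serine protease inhibitor, had 7.88, 92.1 and 43.7 CPM per kb, and C4b, a complement component, had 0.804, 5.82 and 3.74. Both had the order of the GTPases, with replicate 1 lowest. Mir6381 shares 27.6% of its bases with Gbp2. Tubb3, a beta-tubulin best known from neurons, had 5.55, 31.9 and 34.4, and so replicate 1 stood alone. The 10 genes with the widest deficit included Xist, Prss34, Igj, Mcpt4, Epx, Dntt, Cma1, Prg2 and Tpsb2. Of these, 6 are in the list of mast cells, basophils and eosinophils: Prss34, a basophil protease, had 20.2, 20.6 and 4.48, Mcpt4, a chymase, 17.1, 3.61 and 5.0, Epx, the eosinophil peroxidase, 1.71, 5.04 and 0.505, and Tpsb2, a tryptase, 25.5, 5.68 and 8.39. Replicate 3 was at least 2-fold below replicate 1 for 7 of 12 genes of that list, against 1.8% of all genes. Igj, the joining chain of antibodies, had 15.1, 6.69 and 4.05 CPM per kb.

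Of the genes with replicate 2 at least 2-fold outside both others, 330 were higher and 117 lower, but without a filter on low counts 956 were higher and 1258 lower. Lists of myeloid and antigen-presenting cells, which share members and hold a small part of the 330, were among those with higher genes. Replicate 2 was at least 2-fold above both others for 11 of 18 granulocyte and monocyte genes, 8 of 15 dendritic and antigen-presentation genes and 6 of 10 MHC class II genes, a list chosen after the values were seen, against 2.74% of all genes. The median log2 differences from the mean of the others were 1.5, 1.41 and 1.40. The gene-count minus exon-count differences of the Asxl2-/- libraries had medians of -0.36, -0.65 and -0.59 for the same lists, of the opposite sign. Ciita, the coactivator that switches class II genes on, had 7.13, 25.4 and 11.1 CPM per kb, and H2-DMb1, a peptide exchanger, had 25.5, 78.5 and 35.7. Both were highest in replicate 2. Summed over 10 class II genes the level was 1375, 3904 and 1645. Clec9a and Xcr1, markers of cross-presenting dendritic cells, had 10.5, 26.3 and 7.85 and 7.43, 19.6 and 6.07, with replicates 1 and 3 close together.

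The 10 genes highest in replicate 2 relative to both others were 3830403N18Rik, Ly6c2, Hspa1a, Ppfia4, Kmo, Prg2, Klrk1, Aoah, Ly86 and Mefv. The X-linked 3830403N18Rik had 0.131, 18.9 and 0.555 CPM per kb, and its Asxl2-/- difference between kinds of file was -3.07 (log2). Ly86 (MD-1), a partner of a Toll-like receptor homologue in B cells and myeloid cells, had 8.69, 61.9 and 15.5, Klrk1 (NKG2D) had 1.54, 10.8 and 2.61 and Kmo, an enzyme of tryptophan breakdown, had 2.19, 10 and 2.34. Mefv (pyrin), an inflammasome sensor of myeloid cells, had 0.819, 5.77 and 1.47, Aoah, which inactivates lipopolysaccharide, had 0.924, 4.22 and 1.04 and Ppfia4 had 1.06, 4.41 and 0.832. For all of these replicate 2 was the high library, and among Kmo, Mefv, Aoah and Ppfia4 replicate 3 was at most 1.89-fold above replicate 1.

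The 10 genes lowest in replicate 2 included Gfap, Plekhb1, Slc1a2, Sparcl1, Cpe, Camk2n1, Sh3tc2, Amigo2 and Sparc, and most of them are best known from brain. Gfap, the intermediate filament of astrocytes, had 9.35, 0.518 and 3.48 CPM per kb, and Slc1a2, a glutamate transporter of astrocytes, had 1.46, 0.122 and 0.561. In each, replicate 1 was highest, replicate 3 intermediate and replicate 2 lowest. In a list of 25 neuronal and glial genes chosen after the values were seen, 12 of 17 compared had replicate 2 at least 2-fold below both others, against 0.973% of all genes, and 12 had replicate 1 at least 2-fold above both, against 1.11%. The median log2 difference of replicate 2 was -2.14, while the gene-count minus exon-count difference in the Asxl2-/- libraries had the other sign, with a median of 2.30. The levels were low, with a list median of 0.716 CPM per kb, and some members, such as Syt1 (5, 1 and 6 counts) and Nefm (2, 0 and 5 counts), were near the floor. Cnp and Mbp, which blood cells also express, had 43.7, 38.6 and 39.9 and 27.8, 22.9 and 24.4 CPM per kb, a narrower range. The collagens Col1a1 and Col1a2 and Sparc, given above, had the same order of libraries. Of the other genes lowest in replicate 2, Cpe, an enzyme that trims neuropeptides, had 7.89, 0.803 and 3.3, Sparcl1 9.23, 0.892 and 3.85 and Plekhb1 5.29, 0.416 and 2.01. Camk2n1 had 3.27, 0.399 and 1.42, Sh3tc2 1.41, 0.378 and 1.49 and Amigo2 3.37, 0.865 and 2.9, and for the last 2 genes replicates 1 and 3 were close together.

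**Figure D5:**
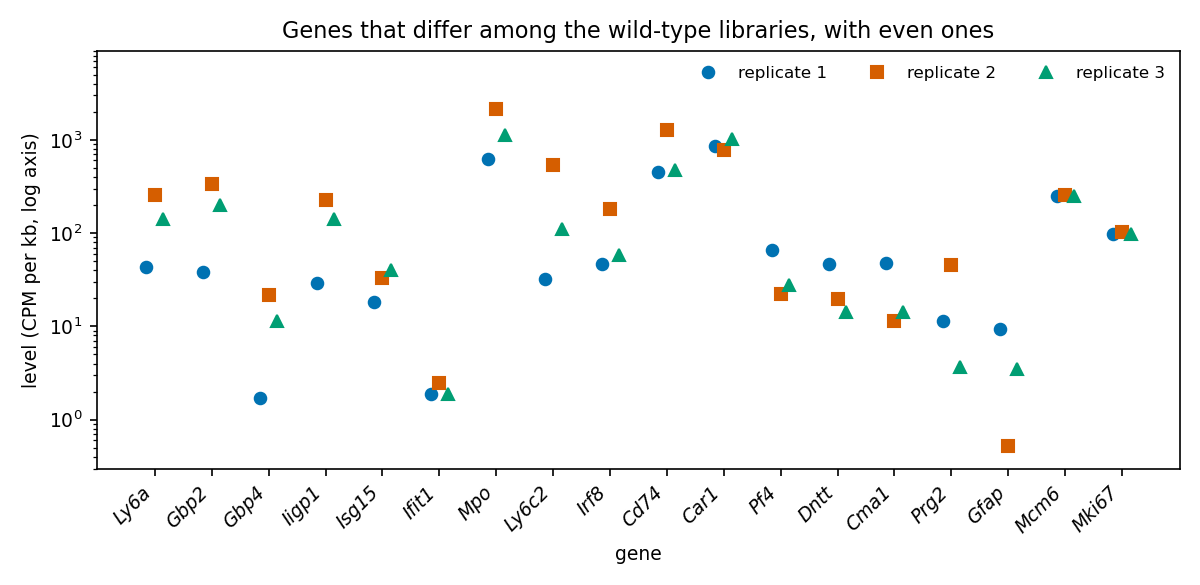
Levels of selected genes in the 3 wild-type libraries, in CPM per kb on a log axis, with each point a library. Replicate 1 is lowest for Ly6a, Gbp2, Gbp4, Iigp1, Mpo and Ly6c2, replicate 2 is highest for Ly6c2, Irf8 and Cd74 and lowest for Gfap, and the points of Ifit1, Mcm6 and Mki67 nearly coincide.

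All 4 Y-linked genes measured were present in each library. Eif2s3y had 23.8, 28.1 and 34.6 CPM per kb, Ddx3y 18.2, 21 and 20.3, Kdm5d 7.48, 7.87 and 6.78 and Uty 5.45, 6.74 and 5.76. Xist, the RNA that coats the inactive X chromosome in females, had 5.23, 1.13 and 1.01 CPM per kb, and Tsix, its antisense partner, had 1.57, 0.454 and 0.438. Replicate 1 was 4.93-fold above replicate 3 for Xist, beside Y-linked levels like those of the others. The libraries were unstranded, so reads from Xist and Tsix cannot be told apart where they overlap. Whether material of several animals or sexes was pooled in a library is not given in the labels.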

How the data were processed

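CD45.2+ LSK cells were sorted from bone marrow, and poly(A)-selected, unstranded libraries were sequenced, per the study. The deposited values were raw counts on the mm10 build with RefSeq transcripts, made by the authors, whose processing notes name STAR, featureCounts and DESeq2 without versions. Control replicates 1 and 3 were deposited as counts per exon and replicate 2 as counts per transcript. Exon counts were summed over the longest transcript of each symbol (4914 symbols had several transcripts, 63 were placed on more than 1 chromosome). A spliced read enters an exon sum more than once, so the log2 ratio of both kinds of file was fitted as a trend on junctions per kb in 20 bins (genes with a mean of at least 50 counts) and removed. This leaves gene-specific effects of the kind of file in place. Levels are CPM per kb. Libraries were compared on log2(CPM + 0.01), centred on the median, over genes with a mean of at least 50 counts, with 2-fold as threshold. Replicates were biological per the methods, and whether mice were pooled is not given. No test was run, because 1 group was described. Steps were tested on simulated data.

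Named genes were the 20 most abundant, the 8 highest members of each factor or receptor list, the 5 highest of each other list, members under 0.1 CPM per kb, and the 10 most extreme genes in each direction with a mean of at least 200 counts. Some genes that the rule takes are not reported here. Other members named were picked after their values were seen. The wild-type group as a subject, all lists and comparisons were chosen with earlier results of these data known, and 4 lists (interferon-inducible GTPases, neuronal and glial, heat-shock and MHC class II genes) and the families of symbols were added after the values were seen. Ly6g, listed with the lineage antigens, had no line of its own. Python 3.11.15, pandas 2.3.3, numpy 2.4.6, bedtools 2.31.1 and, for TMM factors, edgeR 4.0.16 were used.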

Additional observations from a re-analysis of the deposited data

How the results depend on the processing

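No paired analysis was possible because only the control group was described. The number of genes at 1 CPM per kb in every library ranged from 10895 to 11308 over the alternatives at that threshold. With the threshold itself moved, 11917 genes reached 0.5 and 10115 reached 2 CPM per kb. Symbols with no count ranged from 5909 to 6596. The share of the 100 most abundant genes, 26.8%, was 28.8% without the adjustment for the kind of file, 29.6% with a trend on the number of exons and 15.3% without division by length. It ran from 26.6% to 29.9% when each library was left out, the highest without replicate 2. With replicate 2 left out, only exon-count files remain and no trend can be fitted, so the 29.9% is of unadjusted counts. The 299 genes 2-fold apart in replicates 1 and 3 were 111 (55 higher, 56 lower) at a mean of at least 200 counts, 3215 (861 higher, 2354 lower) with no filter, 1072 (228 higher, 844 lower) at 1.5-fold and 63 (34 higher, 29 lower) at 3-fold. The predominance of lower genes in replicate 3 was thus lost at a mean of 200 counts or at 3-fold. The 447 genes with replicate 2 outside both others were 749 (472 higher, 277 lower, 388 shared) when the gene-specific difference between kinds of file in the Asxl2-/- libraries was subtracted, 251 (212 higher, 39 lower) at a mean of at least 200 counts, 2214 (956 higher, 1258 lower, so that lower genes predominated) with no filter, 1173 (809 higher, 364 lower) at 1.5-fold and 115 (73 higher, 42 lower) at 3-fold. The causes were not tested, except that the filters and folds change the number of genes by construction. No difference recomputed under these alternatives that was called turned its direction. The single genes recomputed were those named as extremes. For the lists, 11 median differences crossed 1.5-fold under an alternative and 269 did not. Among the scalings, the median log2 difference of replicate 3 from replicate 1 was largest in size with the library total only, at -0.0723. With the main scaling and no filter it was 0.0752.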
